A study of Mus musculus with 6 samples.

Results

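A set of 8 members of the Wnt pathway was described in parental MC38 cells: Ctnnb1, Apc, Axin1, Axin2, Gsk3b, Tcf7l2, Lrp5 and Lrp6. They were taken by gene symbol, and all 8 were among the 24181 genes of the deposited count table. MC38 is a mouse colon adenocarcinoma line, here grown in culture in standard medium and sequenced from its transcripts' 3' ends. The labels give 2 groups of 3 samples, parental cells of genotype WT and cells expressing STING-N153S, a substitution in the DNA-sensing adaptor STING, and the series set these groups against each other. The deposited column names do not show which columns belong to the STING-N153S samples, so those cells were not analysed here and no difference between the groups is given. The deposited annotation gives the parental libraries biological replicate numbers, BR1 to BR3, but no label says if separate cultures were used, so their spread may be technical.

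In the canonical Wnt pathway, a secreted Wnt protein binds a Frizzled receptor together with LRP5 or LRP6. Without that signal, the scaffold AXIN, the tumour suppressor APC and the kinases GSK3 and CK1 mark beta-catenin, the product of Ctnnb1, for destruction. With it, beta-catenin builds up, enters the nucleus and binds TCF/LEF factors such as TCF7L2 at target genes, among them Axin2, whose product acts back on the pathway as an inhibitor. Loss of APC is the usual first step of human colorectal cancer, and TCF7L2 is the main TCF factor of the intestinal epithelium.

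The parental libraries held 3358908, 4020023 and 3210024 counts in replicates 1 to 3. Levels are in CPM: each count was divided by its library's total and put on a common scale. A gene with 0 counts in all 3 libraries could still stand at up to 0.283 CPM by counting error alone, a one-sided limit and the level that 3 counts over the 10588955 pooled counts would give. Replicate 3 stood apart. At a false discovery rate of 0.05, a chi-square test of counts found 61 genes that differed between replicates 1 and 2, 274 between replicates 1 and 3 and 213 between replicates 2 and 3. Replication-dependent histone genes, 53 in number, summed to 3302, 3189 and 1569 CPM in replicates 1 to 3. Each member is therefore given with and without replicate 3.

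The labelled tissue of origin was checked first. None of the 6 intestinal epithelial markers analysed of 19 listed reached 1 CPM. The highest were Fabp1, a fatty acid-binding protein of enterocytes, with 0.374 ± 0.330 CPM, and Lgals4, an intestinal galectin, with 0.104 ± 0.180 CPM (SD, n = 3). The keratins Krt8 and Krt19 and the brush-border gene Vil1 had 1 count each over the 3 libraries, and the transcription factor Cdx1 had 0. Their summed level was 0.595 to 0.935 CPM. Of 12 mesenchymal markers, 11 reached 1 CPM, beside 49.5% of all genes. The highest were Vim, which encodes the filament protein vimentin, at 3058 ± 176 CPM and S100a4, a calcium-binding protein, at 826 ± 19.9 CPM (SD, n = 3). The other 13 intestinal markers listed, among them Epcam, Cdx2 and Muc2, were not matched to a symbol in the count table. They were not analysed here, so the check of the colon label covers these 6 genes only.

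All 8 members were counted in every parental library, and they fell into an upper and a lower set. Ctnnb1, Gsk3b, Axin1, Lrp6 and Apc stood between 19.0 and 48.5 CPM in the mean, and Tcf7l2, Lrp5 and Axin2 between 2.19 and 5.63 CPM. All 8 had a mean of at least 1 CPM, which 49.5% of all genes reached, and 5 had at least 10 CPM, which 31.2% of all genes reached. The median of the members was 24.6 CPM, beside 0.941 CPM over all genes. The members were named for their place in the pathway and with earlier results of these data known. These shares therefore describe them and are no test.

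**Figure D1:**
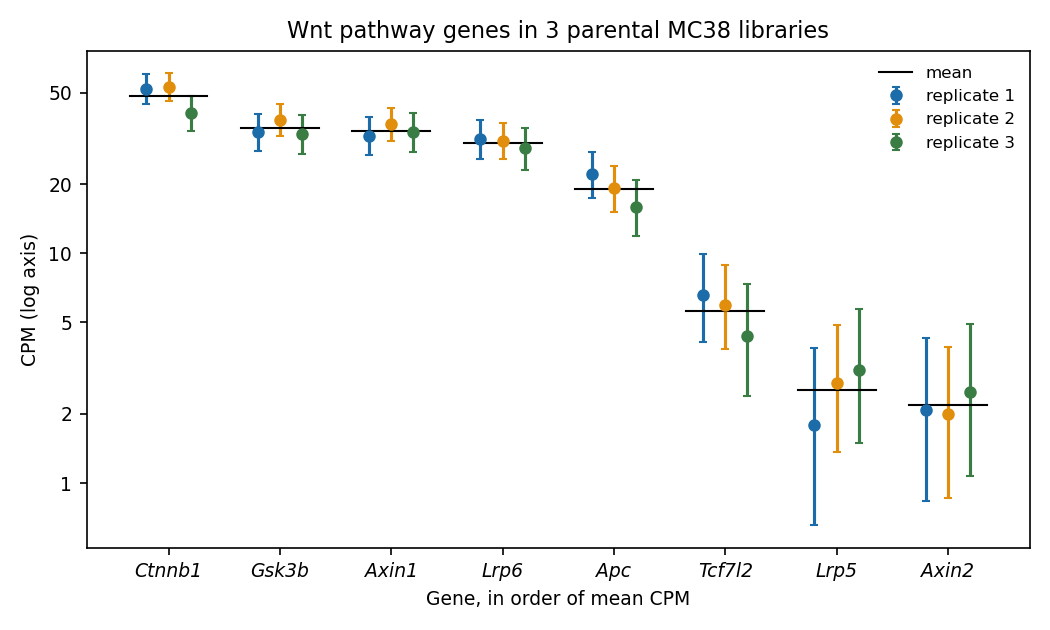
CPM (log axis) of the 8 members in parental replicates 1 to 3, in order of mean CPM. Points are libraries, bars are exact 95% Poisson intervals of the count, which cover counting error only, and black lines are means. Ctnnb1 is highest at 48.5 CPM and Axin2 lowest at 2.19 CPM, and the intervals widen towards the low genes.

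Ctnnb1 encodes beta-catenin, the pathway's transcriptional coactivator, which also links cadherins to the cytoskeleton. The gene lies on chromosome 9 from 120929216 to 120960507 (GRCm38, plus strand), and its longest principal transcript has 15 exons. It had 174, 213 and 131 counts, or 51.8, 53.0 and 40.8 CPM, in replicates 1 to 3. Replicates 1 and 2 lay close together and replicate 3 lay below both. The mean was 48.5 ± 6.71 CPM (SD, n = 3) and 52.4 CPM without replicate 3, and 14.9% of all genes had a higher mean. The end of Ctnnb1 overlaps Ulk4, a gene on the opposite strand that was counted at 1.71 ± 1.20 CPM (SD, n = 3). No source used here says whether the authors counted by strand, and without it reads of these overlapping genes cannot be told apart.

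The plakoglobin gene Jup, the closest relative of Ctnnb1, which also joins cadherins at the membrane, had 3, 1 and 0 counts, 0.381 ± 0.461 CPM (SD, n = 3). Among the other catenins, Ctnna1, which joins beta-catenin to actin, had 138 ± 2.85 CPM, and each library held more counts of it than of Ctnnb1, on average 2.89 ± 0.47 times as many (SD, n = 3). Ctnnd1, the p120 catenin that holds cadherins at the membrane, had 6.23 ± 0.32 CPM (SD, n = 3). Of the classical cadherins analysed, N-cadherin (Cdh2) had 7.28 ± 0.94 CPM (SD, n = 3), Cdh5 had 1 count in all, and Cdh3 and Cdh4 had 0 counts. In this list of catenins and cadherins, 4 of 9 genes analysed of 12 listed reached 1 CPM, beside 49.5% of all genes. E-cadherin (Cdh1), Ctnna2 and Ctnnd2 were not matched to a symbol in the count table and were not analysed here.

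The destruction complex is built on AXIN and APC. Axin1, the scaffold that is made constitutively (chromosome 17, 26138688 to 26195811, plus strand, 11 exons), had 109, 146 and 108 counts, or 32.5, 36.3 and 33.6 CPM. The libraries lay close together, and replicate 2 was the highest. The mean was 34.1 ± 1.98 CPM (SD, n = 3) and 34.4 CPM without replicate 3.

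Axin2, the scaffold paralog that beta-catenin and TCF induce (chromosome 11, 108920349 to 108950783, plus strand, 11 exons), had 7, 8 and 8 counts, or 2.08, 1.99 and 2.49 CPM. The mean was 2.19 ± 0.27 CPM (SD, n = 3) and 2.04 CPM without replicate 3, with an exact 95% interval of 1.38 to 3.26 CPM from the pooled count. Each library held more than 3 counts, so Axin2 was above the floor, and the coefficient of variation between libraries, 12.2%, was below the 36.3% that counting error alone gives at this depth. The count of Axin1 was 15.6, 18.2 and 13.5 times that of Axin2 in replicates 1 to 3. The ratio of the pooled counts was 15.8, with an exact 95% interval of 10.4 to 25.2. Counts of 3' ends come from transcript ends and not from the whole length, so levels of different genes were set side by side without a division by length. How well each 3' end was captured was not measured.

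Apc, the tumour suppressor that brings beta-catenin to the complex (chromosome 18, 34220924 to 34322552, plus strand, 16 exons), had 74, 77 and 51 counts, or 22.0, 19.2 and 15.9 CPM. Replicate 3 was the lowest here too. The mean was 19.0 ± 3.07 CPM (SD, n = 3) and 20.6 CPM without replicate 3. Its paralog Apc2 had 0 counts, so that Apc held all 202 counts of the pair. A count of 3' ends does not read the coding sequence, so it does not show whether the Apc or Ctnnb1 alleles of these cells are mutated.

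Gsk3b, the kinase that phosphorylates beta-catenin after a priming step by CK1 (chromosome 16, 38089001 to 38246084, plus strand, 11 exons), had 372 counts in all and stood at 33.6, 38.1 and 33.0 CPM in replicates 1 to 3. Replicates 1 and 3 were nearly equal, and replicate 2 lay above them. The mean was 34.9 ± 2.75 CPM (SD, n = 3) and 35.9 CPM without replicate 3. Gsk3a, which can take the place of Gsk3b in the pathway, had 36.0 ± 1.86 CPM (SD, n = 3). The ratio of the pooled counts of Gsk3b and Gsk3a was 0.974, with an exact 95% interval of 0.842 to 1.13, and the libraries of the paralogs overlapped.

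Of the 21 destruction complex genes analysed, these 4 members among them, 19 reached 1 CPM and 17 reached 10 CPM. Over all genes, 49.5% and 31.2% did, and the list median was 34.9 CPM. The highest were Rbx1 (680 ± 39.9 CPM) and Skp1, listed in the table as Skp1a (485 ± 18.5 CPM), which belong to ubiquitin ligases, and Ppp2ca, a catalytic subunit of protein phosphatase 2A (358 ± 13.8 CPM; SD, n = 3). These serve many pathways besides Wnt. The priming kinase Csnk1a1 had 274 ± 3.62 CPM (SD, n = 3), and its count was 7.88 ± 0.62 times that of Gsk3b (SD, n = 3). The ubiquitin ligase adaptors that recognise phosphorylated beta-catenin, Fbxw11 and Btrc, had 24.6 ± 5.34 and 16.1 ± 1.29 CPM, and the tankyrases Tnks and Tnks2, which mark AXIN for degradation, 35.2 ± 1.98 and 65.1 ± 10.6 CPM (SD, n = 3).

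**Figure D2:**
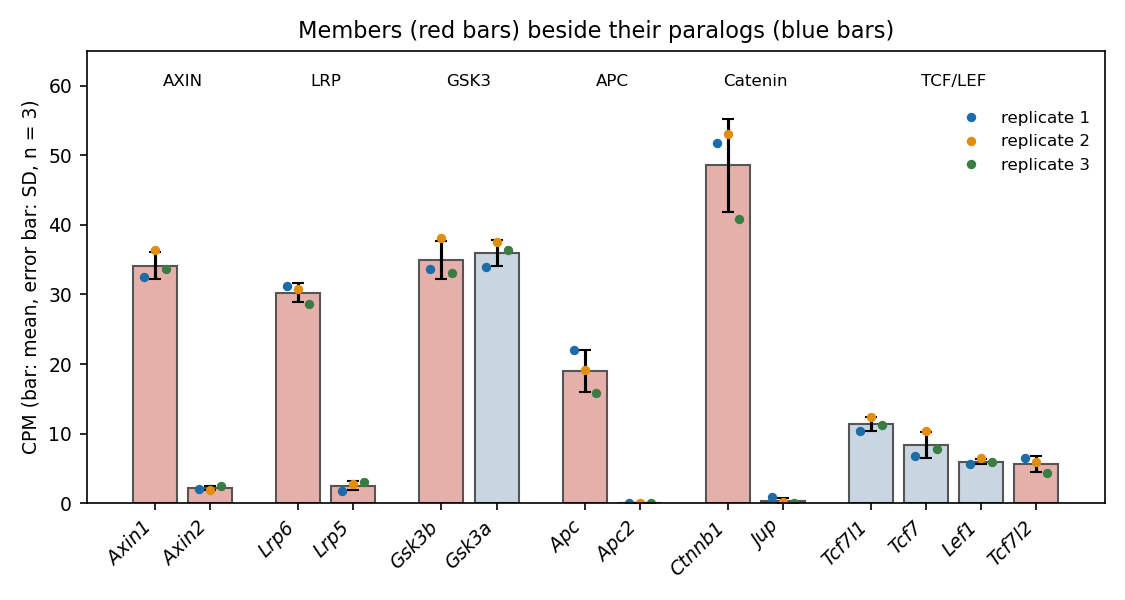
CPM of the members (red bars) and their paralogs (blue bars) in parental MC38 cells, grouped by family. Bars are means, error bars are SD over 3 libraries, and points are replicates 1 to 3. Axin1 and Lrp6 stand far above Axin2 and Lrp5, Gsk3b and Gsk3a are level at 34.9 and 36.0 CPM, and Apc2 has 0 counts.

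At the cell surface, Lrp6, the Wnt co-receptor (chromosome 6, 134446476 to 134566965, minus strand, 23 exons), had 105, 124 and 92 counts, or 31.3, 30.8 and 28.7 CPM. The libraries differed little, with replicate 3 lowest. The mean was 30.3 ± 1.40 CPM (SD, n = 3) and 31.1 CPM without replicate 3.

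Lrp5, the related co-receptor known for its part in bone mass (chromosome 19, 3584828 to 3686564, minus strand, 23 exons), had 6, 11 and 10 counts, or 1.79, 2.74 and 3.12 CPM. Here replicate 3 was the highest and replicate 1 the lowest. The mean was 2.55 ± 0.68 CPM (SD, n = 3) and 2.26 CPM without replicate 3. The count of Lrp6 was 17.5, 11.3 and 9.20 times that of Lrp5, and the ratio of the pooled counts was 11.9, with an exact 95% interval of 8.02 to 18.3.

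Of the 16 receptor genes analysed of 18 listed, 11 reached 1 CPM and 4 reached 10 CPM, beside 49.5% and 31.2% of all genes. The highest were Ryk, an atypical Wnt receptor kinase, with 138 ± 11.5 CPM, Mesd, the chaperone that folds LRP5 and LRP6, with 103 ± 6.37 CPM, and Lrp6 itself. Among the Frizzled genes, Fzd2 was the highest in the mean with 28.1 ± 3.79 CPM, followed by Fzd7 with 3.42 ± 1.46 CPM (SD, n = 3). The other Frizzled genes analysed had lower means, but in replicate 2 Fzd8, at 3.23 CPM, lay above Fzd7, at 1.74 CPM. Ror2, a receptor for Wnt5a, had 4.97 ± 0.50 CPM (SD, n = 3).

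Of the 11 ligand and ligand-processing genes analysed of 21 listed, 4 reached 1 CPM, beside 49.5% of all genes, and 3 had 0 counts. The 4 were Wls, which carries Wnt proteins to the surface, with 176 ± 1.33 CPM, Porcn, the enzyme that adds their lipid, with 1.04 ± 0.18 CPM, and the ligands Wnt5a and Wnt7b (SD, n = 3). Wnt5a, mostly known as a ligand of the beta-catenin-independent branch, had 209, 300 and 243 counts, with a mean of 70.8 ± 7.49 CPM (SD, n = 3). Wnt7b, a canonical ligand, had 58, 60 and 43 counts, with a mean of 15.2 ± 1.95 CPM (SD, n = 3). Wnt1, Wnt4 and Wnt6 had 0 counts.

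Of 8 antagonist genes analysed of 18 listed, 4 reached 1 CPM, a share close to the 49.5% of all genes. Tpbg, a membrane glycoprotein that inhibits canonical signalling, had 38.6 ± 3.38 CPM, Dkk2, a secreted LRP ligand, 19.6 ± 3.54 CPM (SD, n = 3), and Apcdd1, a membrane-bound Wnt inhibitor, had 18, 25 and 11 counts. Dkk3, Sfrp4 and Wif1 had 0 counts. The R-spondin module sets how many Frizzled receptors stay at the surface. Of its 7 genes analysed, 3 reached 1 CPM, again beside 49.5% of all genes. The ubiquitin ligase Znrf3 had 6.64 ± 0.36 CPM, the R-spondin receptor Lgr4 1.85 ± 0.65 CPM and the ligand Rspo3 1.64 ± 0.70 CPM, while Rnf43, the partner of Znrf3, and Lgr5 had 0 counts (SD, n = 3). The Dishevelled genes, which pass the signal from Frizzled to AXIN, were led by Dvl2 with 24.8 ± 1.46 CPM and Dvl1 with 20.1 ± 1.19 CPM, with Dvl3 at 10.8 ± 1.21 CPM (SD, n = 3). In that list of 13 genes, 11 reached 1 CPM, beside 49.5% of all genes. The CK1 kinases Csnk1g2 (150 ± 14.8 CPM), Csnk1d (135 ± 5.61 CPM) and Csnk1e (106 ± 9.87 CPM; SD, n = 3) were the highest. The Dishevelled inhibitor Nkd1 had 0 counts.

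**Figure D3:**
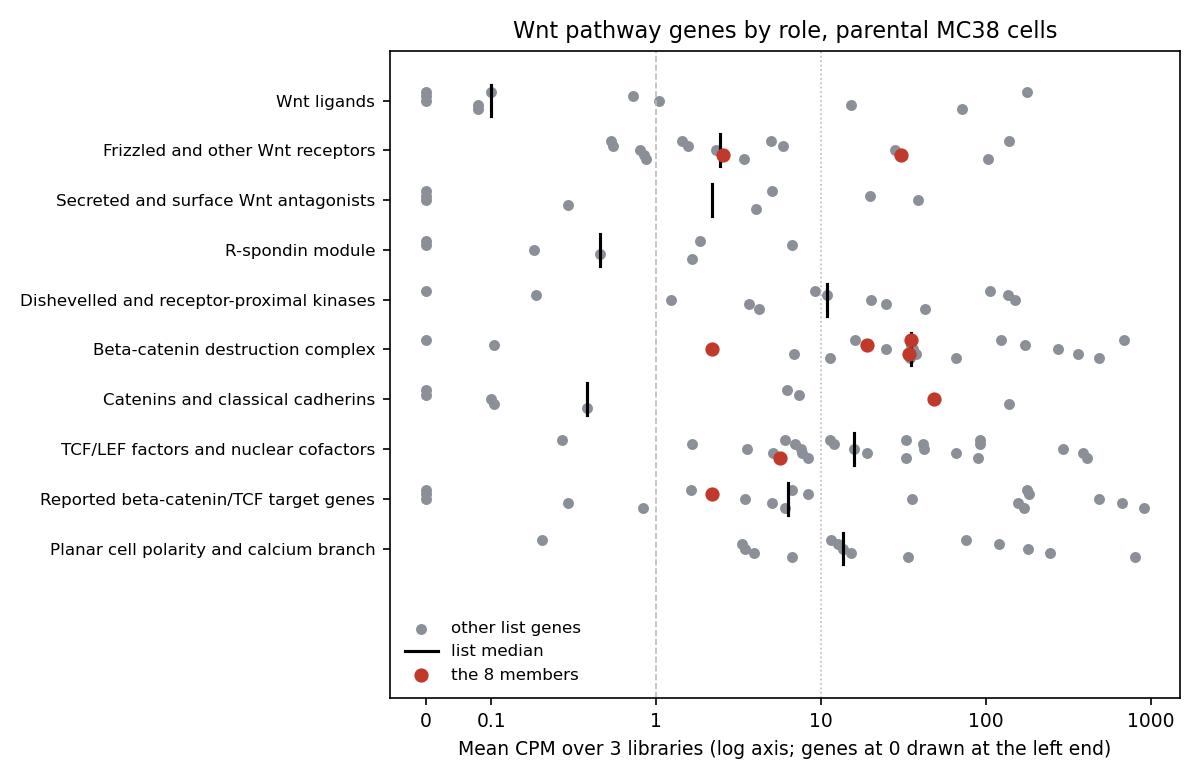
Mean CPM over 3 parental libraries (log axis, genes at 0 drawn at the left end) of the genes analysed in 10 Wnt lists. Grey points are genes, red points the 8 members, black lines list medians, and the broken and dotted lines mark 1 and 10 CPM. Ligand, R-spondin and cadherin lists have medians below 1 CPM, while the destruction complex has a median of 34.9 CPM.

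Tcf7l2 encodes the TCF factor best known from the colon (chromosome 19, 55741820 to 55933654, plus strand, 13 exons). It had 22, 24 and 14 counts, or 6.55, 5.97 and 4.36 CPM, in replicates 1 to 3. Replicate 3 was the lowest. The mean was 5.63 ± 1.13 CPM (SD, n = 3) and 6.26 CPM without replicate 3, and the count of Ctnnb1 was 8.71 ± 0.74 times as high (SD, n = 3). Tcf7l2 was the lowest of the 4 TCF/LEF genes in mean CPM. Tcf7l1, mostly a repressor, had 11.4 ± 1.02 CPM, Tcf7 8.36 ± 1.87 CPM and Lef1 6.01 ± 0.41 CPM (SD, n = 3). The count of Tcf7l1 was above that of Tcf7l2 in 3 of 3 libraries, at a pooled ratio of 2.02 with an exact 95% interval of 1.47 to 2.80. The pooled ratio of Tcf7l2 to Tcf7 was 0.667 (0.473 to 0.934), and the libraries of Tcf7l2, at 4.36 to 6.55 CPM, lay below those of Tcf7, at 6.85 to 10.4 CPM, without overlap. Tcf7l2 and Lef1 overlapped, at a pooled ratio of 0.938 (0.648 to 1.35).

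Of the 25 TCF/LEF factors and nuclear cofactors, 24 reached 1 CPM and 15 reached 10 CPM, beside 49.5% and 31.2% of all genes. The highest were Smarca4, the ATPase of a chromatin remodeller, with 409 ± 35.3 CPM, Tle5, a short member of the Groucho corepressor family, with 386 ± 10.6 CPM and the corepressor Ctbp1 with 292 ± 13.6 CPM (SD, n = 3). Ctnnbip1, which keeps beta-catenin from TCF factors, had 91.2 ± 6.40 CPM (SD, n = 3). The coactivators Bcl9 and Bcl9l, which join beta-catenin to Pygopus, had 5.10 ± 2.38 and 7.58 ± 1.17 CPM, and Pygo2 had 41.8 ± 6.04 CPM (SD, n = 3).

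Reported targets of beta-catenin and TCF spread over a wide range. Of 20 analysed of 25 listed, 15 reached 1 CPM and 8 reached 10 CPM, beside 49.5% and 31.2% of all genes. The cyclin gene Ccnd1 was the highest at 902 ± 42.2 CPM, and Fosl1 and Jun, which encode parts of AP-1, stood at 665 ± 36.3 and 482 ± 25.5 CPM and Myc at 170 ± 11.3 CPM (SD, n = 3). Ccnd1, Fosl1, Jun and Myc are targets of many other pathways. The other targets that reached 10 CPM were Sox4, Cd44, Sox9 and Bambi. Sox4 and Cd44 lay above Myc in the mean, with 180 ± 13.7 and 178 ± 12.7 CPM (SD, n = 3). Sox9 lay below Myc with 156 ± 19.0 CPM (SD, n = 3), and Bambi had 118, 159 and 100 counts in replicates 1 to 3. Among the analysed targets that encode Wnt inhibitors, Axin2 stood at 2.19 CPM and Znrf3 at 6.64 CPM, beside a median of 0.941 CPM over all genes. Of all genes, 43.4% had a higher mean than Axin2 and 34.9% a higher mean than Znrf3. Apcdd1 had 54 counts and Notum 3 counts in all. Nkd1, Rnf43 and the stem cell gene Lgr5 had 0 counts.

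A promoter window from RefSeq (GRCm38.p6), running from 250 bases before to 50 bases after a gene's start, was at hand for 4 of the 8 members. A pair of windows is shown, that of Axin2 because it is the member that reads out TCF activity, and an internal one of Tcf7l2 because it is the only window of the members with a match. The TCF/LEF core was searched on both strands as CTTTG followed by AA, AT, TA or TT, and matches are in capitals. The first lies at chr11:108920099-108920398 and the second at chr19:55895071-55895370, both on the plus strand.
Axin2: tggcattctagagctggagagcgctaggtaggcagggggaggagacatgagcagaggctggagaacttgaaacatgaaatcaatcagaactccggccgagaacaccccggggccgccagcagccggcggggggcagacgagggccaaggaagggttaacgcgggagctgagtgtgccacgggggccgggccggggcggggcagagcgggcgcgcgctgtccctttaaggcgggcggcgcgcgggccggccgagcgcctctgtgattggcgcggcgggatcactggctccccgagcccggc
Tcf7l2: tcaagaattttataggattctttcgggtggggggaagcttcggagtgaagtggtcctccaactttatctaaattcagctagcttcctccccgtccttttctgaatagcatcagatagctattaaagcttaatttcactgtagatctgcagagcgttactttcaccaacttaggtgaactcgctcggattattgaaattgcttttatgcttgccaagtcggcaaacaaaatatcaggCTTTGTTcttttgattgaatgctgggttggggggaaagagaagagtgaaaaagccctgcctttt
The Axin2 window held none of these letters, and the Tcf7l2 window held CTTTGTT on the plus strand, starting at base 237 of the window. Of 32851 such windows of all genes, 16.9% held at least 1 match. Counted by gene, 18.9% of 27025 genes had a match in at least 1 window, and 5 of the 16 listed target genes with a window did. The search covered only these windows, so matches elsewhere in Axin2 would not be seen. These are descriptions of letters, and a count of 3' ends does not tell which start of Tcf7l2 was used.

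In the order of levels, neighbours were compared over their 3 libraries. Ctnnb1 lay above Gsk3b without overlap, at a pooled ratio of 1.39 (exact 95% interval 1.22 to 1.60). Gsk3b and Axin1 overlapped, at 1.02 (0.884 to 1.19). The libraries of Axin1 lay above those of Lrp6, but the interval of their ratio, 1.13 (0.970 to 1.32), held 1, so their order was not resolved by counting. Lrp6 lay above Apc at 1.59 (1.33 to 1.90), Apc above Tcf7l2 at 3.37 (2.51 to 4.57) and Tcf7l2 above Lrp5 at 2.22 (1.39 to 3.64), in each case without overlap. Lrp5 and Axin2 overlapped, at 1.17 (0.648 to 2.14). With 3 libraries of a single group, no test of a gene against another was made.

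Variation of the members between the parental libraries was then tested, which compares libraries and not conditions. By the chi-square test, with p-values adjusted by Benjamini-Hochberg over 11118 genes, 0 of the 8 members varied beyond counting noise, where 2.80% of all genes tested did. At so low a share, 0 of 8 does not set the members apart from other genes. The members had 23 to 518 pooled counts, and small differences can go unseen at that depth. At an unadjusted p below 0.05, 1 of the 8 members passed, where 13.2% of all genes passed. That gene was Ctnnb1, with an unadjusted p of 0.0458 and an adjusted p of 0.364. By the same test its unadjusted p was 0.0180 without replicate 1, 0.0225 without replicate 2 and 0.869 without replicate 3, its lowest library. The adjusted p was 0.269, 0.281 and 0.983 in that order. Of the 100 genes of the Wnt lists that were tested, 6 varied: Rbx1, lower in replicate 3, and Smarca4, Ccnd1, Sox9, Vangl1 and Rac1. Smarca4 stood at 390, 387 and 450 CPM, and Vangl1, a planar polarity protein, at 26.8, 30.1 and 43.3 CPM. Both were highest in replicate 3.

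Replicate 3 was the lowest library for 5 of the 8 members, Ctnnb1, Gsk3b, Lrp6, Apc and Tcf7l2, and 35.5% of all genes tested had their lowest CPM there. The summed level of the 8 members was 182, 188 and 162 CPM in replicates 1 to 3. Against replicates 1 and 2 together, with library sizes scaled by median ratios, replicate 3 stood at 0.779 for Ctnnb1, with an exact 95% interval of 0.634 to 0.952. For Apc the ratio was 0.777 (0.554 to 1.07) and for Tcf7l2 0.700 (0.355 to 1.30). The intervals of all members but Ctnnb1 held 1, and that of Ctnnb1 is not adjusted for the 8 looked at. The lower histone level of replicate 3 moved with these values, and its part in them was not tested.

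**Figure D4:**
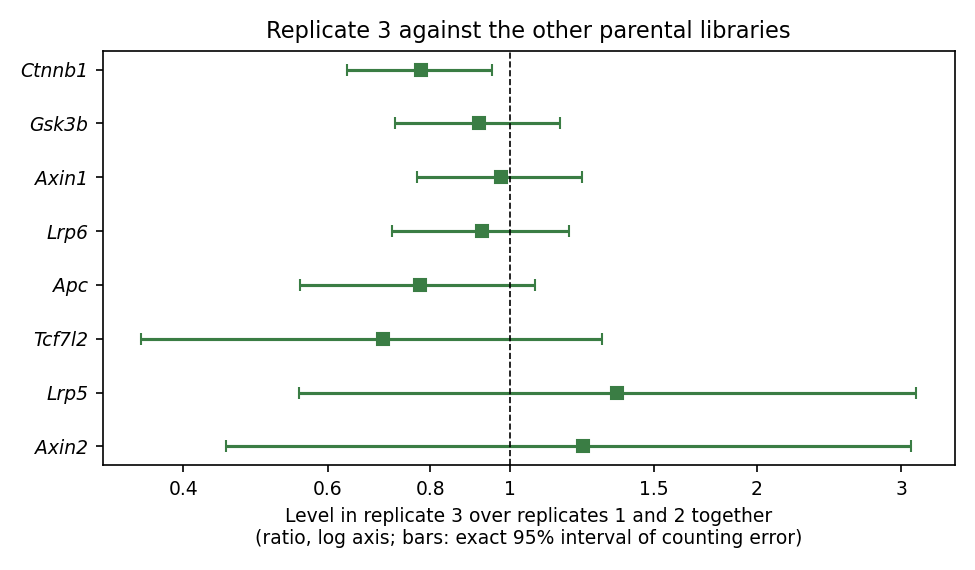
Level of each member in parental replicate 3 over replicates 1 and 2 together (ratio, log axis), with library sizes scaled by median ratios and exact 95% intervals of counting error. The ratio of Ctnnb1 is 0.779 and its interval ends below 1, while the intervals of the other 7 members cross 1.

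How far each count can be tied to its gene was read from GENCODE M21 on GRCm38. Of the 31-base words in the last 1000 bases of the annotated coding transcripts, 0 were shared in the same direction with transcripts of another gene for Ctnnb1, Axin1, Axin2, Gsk3b, Tcf7l2 and Lrp5. For Lrp6 the share was 0.825% and for Apc 2.87%. Exact words of this length were not shared between Axin1 and Axin2 or between Lrp5 and Lrp6. Other ratios given here are less certain on this point. For Ctnnb1, 446 of 2070 words occur in the opposite direction in transcripts of other genes, which matters if counts were not made by strand. Some words of Apc also occur, in either direction, in Lrp6, Gsk3a shares 2.38% of its words with Gm6275 and overlaps 9130221H12Rik on the opposite strand, and the end of Tcf7 overlaps Gm26551 on the same strand. The annotation lists 8 different 3' ends for the 10 coding transcripts of Tcf7l2 and 1 for Lrp6, and the counts do not separate them.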

How the data were processed

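Transcripts of parental MC38 cells were counted by bulk 3'-end sequencing with sample barcodes and unique molecular identifiers, per the labels' protocols. The deposited values are whole-number counts per gene. Per the file headers, the genome was GRCm38 with GENCODE M25, reads were not trimmed, and the authors used Drop-seq tools 1.12, Picard 2.18.26 and STAR 2.7.5b. Collapsing by molecular identifier, the handling of reads that match several genes and the use of strand are not given in the sources used here. Intervals and floors cover counting error only.

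The 3 columns named wild type in the deposited annotation were assigned to the parental samples from the genotype and replicate number in their names. The other 6 columns, 2 sets of 3, could not be tied to the 3 STING-N153S samples and were not used, so the planned comparison of the groups was not run. Members and lists were chosen with earlier results of these data known.

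CPM was computed from the deposited counts and library totals. The chi-square test took library sizes from median ratios and every gene whose expected count was 5 or more in all 3 libraries, and it was tested on simulated data beforehand. Alternatives changed the scaling, the minimum counts and levels and the libraries included. Ratios of genes have exact (Clopper-Pearson) 95% intervals from pooled counts, and levels exact Poisson intervals. Genes named were the 8 members, their paralogs, the 3 highest and up to 4 genes with 0 counts of each Wnt list, and the 2 highest of each marker list. Others were named after their values were seen. List symbols missing from the table were matched through RefSeq synonyms where a single symbol fitted, and genes without a match were not analysed here. TMM and upper-quartile factors came from edgeR 4.0.16 and size factors from DESeq2 1.42.0, in R 4.3.3. Other tools were scipy 1.17.1, pandas 2.3.3, numpy 2.4.6 and matplotlib 3.10.9 in Python 3.11.15.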

Additional observations from a re-analysis of the deposited data

How the results depend on the processing

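For the STING-N153S comparison, no other tool, normalization, filter, covariate or set of libraries was run, since no column was tied to those samples. No paired analysis was possible because a second group was not analysed. The number of members varying between libraries was 0 under each of the 7 alternatives run, with the lowest adjusted p of a member between 0.269 (without replicate 1) and 0.882 (without replicate 3). With an expected count of at least 10, 6 members were left to test. Leaving out a replicate gave 1 to 4 varying genes of the Wnt lists, against 6, with 2 without replicate 2 and 1 without replicate 3, and 61 to 274 varying genes over all genes, against 311, with 61 without replicate 3. With fewer libraries the test also has less to go on. At a minimum of 2 CPM, 1 gene of the R-spondin module was left, against 3. Of 56 levels of single members under alternatives, 53 moved by less than 1 SD, and the other 3 moved when the 20 highest genes were left out of the totals, a scaling that multiplies every level by 1.10 to 1.11. The ratio of Axin1 to Axin2 ran from 14.5 to 17.0 and that of Lrp6 to Lrp5 from 10.3 to 13.5 when a library was left out. Depth limits Lrp5 and Axin2 most, with 27 and 23 counts in all.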

Other observations

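The branches of Wnt signalling that do without beta-catenin were counted as well. Of 15 planar polarity and calcium branch genes analysed of 19 listed, 14 reached 1 CPM and 10 reached 10 CPM. Over all genes, 49.5% and 31.2% did, and the list median was 13.5 CPM. The GTPases Rac1, with 794 ± 44.2 CPM, and Rhoa, with 243 ± 15.4 CPM, and the kinase Rock2, with 180 ± 8.60 CPM, were the highest (SD, n = 3), and all 3 act in many processes besides Wnt. The core polarity gene Vangl1 had 33.4 ± 8.73 CPM and its paralog Vangl2 6.63 ± 1.63 CPM, and Prickle1 had 3.32 ± 1.04 CPM (SD, n = 3).

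Markers of other cell types were read beside the Wnt genes. Of 7 fibroblast markers analysed, 4 reached 1 CPM, beside 49.5% of all genes, with a summed level of 173 to 197 CPM. Col3a1 (115 ± 8.80 CPM), Dcn (52.1 ± 5.48 CPM) and Pdgfra (12.8 ± 2.69 CPM) were the highest (SD, n = 3). The other markers were low. The collagen genes Col1a1 and Col1a2 stood at 3.58 ± 1.28 and 0.991 ± 0.723 CPM and Pdgfrb at 0.667 ± 0.463 CPM (SD, n = 3), and Lum had 1 count in all. Of 7 myeloid markers, 1 reached 1 CPM, Cd14 with 22.1 ± 0.81 CPM, followed by Cd68 with 0.925 ± 0.324 CPM (SD, n = 3), while Csf1r, Lyz2 and Laptm5 had 0 counts. None of 3 lymphocyte markers (Lck with 1 count in all, Cd8a with 0) and none of 5 endothelial markers reached 1 CPM, and the highest endothelial ones were Esam with 0.385 ± 0.185 CPM and Pecam1 with 0.182 ± 0.160 CPM (SD, n = 3). Among the transcription factors of the mesenchymal list, Twist2 stood at 182 ± 7.19 CPM, Twist1 at 77.9 ± 1.92 CPM and Snai2 at 44.6 ± 2.97 CPM, above the means of Axin1 and Gsk3b (SD, n = 3). Snai1 at 30.2 ± 4.99 CPM and Zeb2 at 22.8 ± 3.09 CPM lay below them (SD, n = 3), and so did Zeb1, with 85, 122 and 72 counts.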
